A study of Mus musculus with 6 samples.

Results

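Costimulatory and checkpoint ligands are surface proteins through which macrophages and other antigen-presenting cells stimulate or restrain T cells. Their 9 genes, Cd80, Cd86, Icosl, Cd276, Cd274, Pdcd1lg2, Cd40, Tnfsf9 and Tnfsf4, were chosen by name with earlier results of these data known, out of 35865 mouse genes with values. Of these 35865 genes, 16386 passed the low-count filter, and so did all 9 ligand genes, though Pdcd1lg2 and Tnfsf4 passed only through their Tet2 KO libraries. Pdcd1lg2 and Tnfsf4 were also selected on a measured value, their near absence from Tet2 WT, so their levels are a description with no test, and 7 genes were tested. Of those 7, Tnfsf9 and Cd86 were higher in Tet2 KO (1.81-fold and 1.65-fold, called by edgeR at an adjusted p under 0.05, as were 6.11% of all tested genes), and neither was called once counts were scaled to macrophage markers. Cd40, Icosl, Cd80, Cd276 and Cd274 were not called.

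The libraries were made from cardiac macrophages sorted out of digested hearts of mice on the C57BL/6J strain, and the labels give the cells as descended from transferred haematopoietic progenitors. There were 3 Tet2 KO libraries (Tet2-/- donors) and 3 Tet2 WT libraries (Tet2+/+ donors), and the comparison asks how macrophages of these genotypes differ. The recipients were not conditioned before the transfer, so blood cells of the host remained in them. The sort gate, the deleted part of Tet2 and the age of the animals were not given in the sources used here. Separate animals or cultures are not named for the replicates, so p-values here reflect the spread among the 3 libraries of each group, part of which may be technical.

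A T cell that meets its antigen needs a further, costimulatory signal from the presenting cell. Cd80 and Cd86 encode B7 proteins that give this signal through CD28 and that the inhibitory receptor CTLA-4 also binds, and Icosl encodes the ligand of ICOS. Cd274 and Pdcd1lg2 encode the checkpoint ligands PD-L1 and PD-L2, which restrain T cells through PD-1, and Cd276 encodes B7-H3, whose receptor is less well defined. Cd40 encodes a receptor and not a ligand: helper T cells engage it with CD40 ligand to activate the macrophage. Tnfsf9 and Tnfsf4 encode the TNF-superfamily ligands of the receptors that Tnfrsf9 and Tnfrsf4 encode on T cells, which sustain activated T cells.

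Library depth lay between 37349505 and 55771087 estimated counts in Tet2 KO and between 49883028 and 53586473 in Tet2 WT. Tet2 itself was not lower in the libraries labelled Tet2 KO (81.2, 82.6 and 78.2 counts per 1e+06 counts, CPM) than in those labelled Tet2 WT (57.5, 76.1 and 60.8 CPM), with a log2 fold change of 0.32 ± 0.14 (SE) and an edgeR adjusted p of 0.159. Since the deleted part is not known, this total checks the labels only in part, and every direction below is between the groups as labelled. Macrophage markers were abundant in both groups: the summed level of 16 pan-macrophage markers was 41460, 35450 and 38340 CPM in Tet2 KO, against 22580, 30590 and 26210 CPM in Tet2 WT, and 12 of the 16 were called higher in Tet2 KO and 0 lower. The 14 fibroblast markers summed to 1331, 719.8 and 1321 CPM in Tet2 KO, against 12630, 6992 and 9879 CPM in Tet2 WT, and all 14 were called lower. In bulk RNA, fewer cells of a type and less RNA per cell cannot be told apart. These marker differences between the genotypes stand beside every ligand result given here, and their part in those results was not tested.

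Levels per length, in transcripts per 1e+06 transcripts (TPM), placed the 9 genes in nearly the same order in both groups. In Tet2 KO, Tnfsf9 (233 ± 18.8 TPM) and Cd86 (206 ± 29.7 TPM) stood highest (mean ± SD, n = 3) and overlapped each other, and in Tet2 WT the order of their means was the other way, with Cd86 at 149 ± 15.98 TPM and Tnfsf9 at 144 ± 30.3 TPM, again overlapping. Cd40 and Icosl came next and overlapped each other in both groups. Cd80, Cd276 and Cd274 followed in that order in both groups, with no overlap between one and the next. Pdcd1lg2 and Tnfsf4 came last and overlapped each other in both groups. Cd274, the next lowest gene above that pair, was listed at 3.48 to 5.34 TPM in Tet2 KO and 3.76 to 5.06 TPM in Tet2 WT. The plot of TPM by library shows each of these values.

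**Figure D1:**
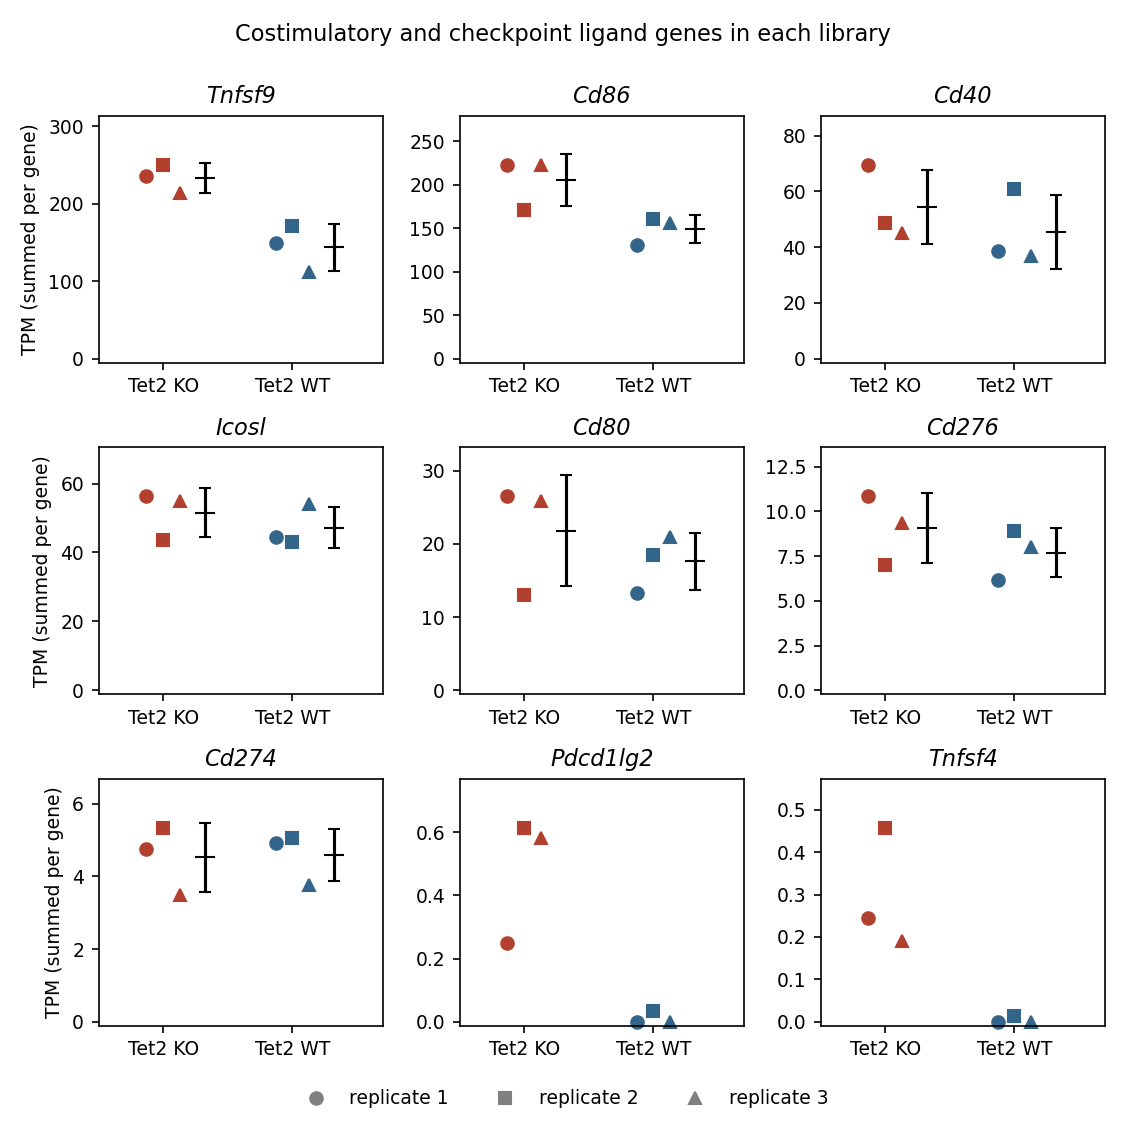
TPM summed per gene (linear axes, 1 panel per gene, each with its own scale) in the 3 Tet2 KO libraries (red, left) and the 3 Tet2 WT libraries (blue, right); black marks are mean ± SD, left out for Pdcd1lg2 and Tnfsf4, which were listed at 0 in Tet2 WT replicates 1 and 3. Tnfsf9 and Cd86 are the genes among the other 7 whose Tet2 KO libraries all lie above all Tet2 WT libraries.

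Among the tested ligand genes, Cd86 was the only B7 gene called. Cd86 (ENSMUSG00000022901.13, chr16:36603869-36666081 of GRCm38, minus strand) was listed at 223, 171 and 222 TPM in Tet2 KO and at 131, 161 and 156 TPM in Tet2 WT. Each Tet2 KO library was above each Tet2 WT library, although the lowest Tet2 KO library, replicate 2, was only just above the highest Tet2 WT one. On counts, Cd86 averaged 313 ± 46.9 CPM in Tet2 KO, against 190 ± 24.1 CPM in Tet2 WT (SD, n = 3 each), with a log2 fold change of 0.72 ± 0.16 (SE; 95% interval 0.373 to 1.07) and an edgeR adjusted p of 0.0121. Without Tet2 KO replicate 3 the log2 fold change was 0.67 and Cd86 was no longer called (edgeR adjusted p = 0.0585). A limma fit on log2(TPM + 1) gave a log2 difference of 0.46 with an adjusted p of 0.0723.

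Cd80, the other ligand of CD28 and CTLA-4, lay well below Cd86 per length. Cd80 (ENSMUSG00000075122.5, chr16:38455561-38496335, plus strand) was listed at 26.5, 13.1 and 25.8 TPM in Tet2 KO and at 13.4, 18.6 and 20.9 TPM in Tet2 WT. The groups overlapped, since Tet2 KO replicate 2 held the lowest value of all 6 libraries and the other two Tet2 KO libraries the highest. The log2 fold change of its counts was 0.25 ± 0.22 (95% interval -0.231 to 0.736), with an edgeR adjusted p of 0.507. The TPM ratio of Cd86 to Cd80 was 8.41, 13.1 and 8.61 in Tet2 KO and 9.79, 8.66 and 7.45 in Tet2 WT. These ratios overlapped (exact permutation test, two-sided, p = 0.7; 0.7 after Benjamini-Hochberg adjustment over 3 ratios), and with 3 libraries a group this test cannot give a p under 0.1.

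Icosl, the ICOS ligand gene (ENSMUSG00000000732.9, chr10:78069302-78083913, plus strand), stood above Cd80 in every library. It was listed at 56.4, 43.5 and 54.9 TPM in Tet2 KO and at 44.4, 43.1 and 54.1 TPM in Tet2 WT, and both groups spanned nearly the same range. Its count averaged 98.6 ± 10.95 CPM in Tet2 KO, against 80.7 ± 7.20 CPM in Tet2 WT, with a log2 fold change of 0.29 ± 0.13 (95% interval -0.009 to 0.585) and an edgeR adjusted p of 0.187.

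Cd276 (ENSMUSG00000035914.11, chr9:58524298-58555437, minus strand) was listed at 10.9, 6.98 and 9.35 TPM in Tet2 KO and at 6.18, 8.88 and 8.02 TPM in Tet2 WT. As for Cd80 and Cd86, replicate 2 was the lowest Tet2 KO library, and the groups overlapped. The log2 fold change was 0.39 ± 0.22 (95% interval -0.091 to 0.876), with an edgeR adjusted p of 0.274.

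The 2 genes of PD-1 ligands are neighbours on chromosome 19, 22823 bases apart. Cd274 (ENSMUSG00000016496.7, chr19:29367455-29388095, plus strand), which encodes PD-L1, was listed at 4.76, 5.34 and 3.48 TPM in Tet2 KO and at 4.91, 5.06 and 3.76 TPM in Tet2 WT. The Tet2 WT values lay within the range of the Tet2 KO values, with replicate 3 lowest in each group. The log2 fold change was 0.14 ± 0.24 (95% interval -0.394 to 0.675), with an edgeR adjusted p of 0.763. The TPM ratio of Cd86 to Cd274 was 46.9, 32.1 and 64.0 in Tet2 KO and 26.6, 31.7 and 41.4 in Tet2 WT, which overlapped (exact permutation test, two-sided, p = 0.2; 0.3 after adjustment over 3 ratios).

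Pdcd1lg2 (ENSMUSG00000016498.10, chr19:29410919-29471161, plus strand), which encodes PD-L2, had 10, 38 and 35 estimated counts in Tet2 KO and 0, 2 and 0 in Tet2 WT. It was listed at 0.251, 0.615 and 0.583 TPM in Tet2 KO and at 0, 0.0335 and 0 TPM in Tet2 WT. All of these counts were assigned to Pdcd1lg2-201, and its other transcript, Pdcd1lg2-202, was at 0 in all 6 libraries. Even its highest library was below the lowest Cd274 library, so PD-L2 transcripts were scarce in both groups. The summed counts were 83 in Tet2 KO and 2 in Tet2 WT, or 0.569 per 1e+06 counts (exact Poisson 95% interval 0.454 to 0.706) and 0.013 (0.00157 to 0.0469). These intervals cover counting error only and not the spread among libraries. The low Tet2 WT level was among the reasons the gene was selected, so the intervals do not test a difference between the groups. A count of 0 allowed up to 0.0605 per 1e+06 counts in Tet2 WT replicate 1 and up to 0.0586 in replicate 3. The gene that follows Pdcd1lg2, Ric1, was not called (log2 fold change -0.47 ± 0.24, edgeR adjusted p = 0.248), nor was the gene before Cd274, Plgrkt (0.08 ± 0.16, edgeR adjusted p = 0.790).

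The starts of these neighbours are shown because the genes lie side by side. The low Tet2 WT level of Pdcd1lg2 was among the reasons it was selected, and a link between levels and these sequences was not tested. RefSeq windows (GRCm38.p6) from 250 bases before to 50 bases after the start were at hand for 5 of the 9 genes, and the bases before the start that lie outside annotated exons of other genes are printed, from 5′ to 3′. Capitals mark the match to the NF-kB motif, searched on both strands by that motif's name.
Pdcd1lg2, chr19:29410669-29410918, plus strand: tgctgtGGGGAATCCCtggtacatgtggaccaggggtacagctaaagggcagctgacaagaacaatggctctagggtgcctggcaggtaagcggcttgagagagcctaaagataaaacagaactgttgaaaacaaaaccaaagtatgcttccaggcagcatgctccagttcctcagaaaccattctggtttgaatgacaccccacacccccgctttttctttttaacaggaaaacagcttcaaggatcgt
Cd274, chr19:29367391-29367437, plus strand: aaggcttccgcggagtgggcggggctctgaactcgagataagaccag
The Pdcd1lg2 window held 3 CpG dinucleotides and the Cd274 window 15, beside a median of 7 over 32851 promoter windows of the same 300 bases. Of all windows, 31.4% held no more CpG than Pdcd1lg2 and 67.0% no more than Cd274. The Cd80 window held 3 CpG, the Icosl window 26 and the Cd276 window 39. An NF-kB motif was found in the Pdcd1lg2 window and in 5.8% of all windows. The interferon regulatory factor core GAAANNGAA was found once in the Cd274 window, beyond the bases printed, and in 8.56% of all windows. No interferon-gamma activated site, TTCNNNGAA, was found in the 5 windows, and 8.3% of all windows held one. No match overlapped another motif's. These matches describe letters in the windows and say nothing of binding.

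Cd40 (ENSMUSG00000017652.16, chr2:165055627-165072948, plus strand), the receptor for CD40 ligand, was listed at 69.6, 48.6 and 45.1 TPM in Tet2 KO and at 38.6, 60.8 and 36.7 TPM in Tet2 WT. Tet2 WT replicate 2 lay above 2 of the 3 Tet2 KO libraries, so the groups overlapped. The count averaged 40.2 ± 6.26 CPM in Tet2 KO, against 31.0 ± 8.72 CPM in Tet2 WT, with a log2 fold change of 0.37 ± 0.21 (95% interval -0.089 to 0.836) and an edgeR adjusted p of 0.277. Without Tet2 WT replicate 2 the log2 fold change was 0.64 and Cd40 was called higher (edgeR adjusted p = 0.0419).

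Tnfsf9, the 4-1BB ligand gene, had the largest log2 fold change of the 7 tested genes. Tnfsf9 (ENSMUSG00000035678.8, chr17:57105325-57107757, plus strand) was listed at 236, 251 and 213 TPM in Tet2 KO and at 150, 171 and 111 TPM in Tet2 WT. All Tet2 KO libraries stood clear of all Tet2 WT libraries. Its count averaged 206 ± 21.2 CPM in Tet2 KO, against 114 ± 27.4 CPM in Tet2 WT, with a log2 fold change of 0.85 ± 0.18 (95% interval 0.445 to 1.26) and an edgeR adjusted p of 0.0115. It was called with each of the 6 libraries left out in turn (adjusted p between 0.0072 and 0.0420). The TPM ratio of Tnfsf9 to Icosl, whose products both stimulate T cells, was 4.19, 5.76 and 3.89 in Tet2 KO and 3.37, 3.97 and 2.06 in Tet2 WT, which overlapped (exact permutation test, two-sided, p = 0.2; 0.3 after adjustment over 3 ratios).

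Tnfsf4 (ENSMUSG00000026700.4, chr1:161395409-161418410, plus strand), the OX40 ligand gene, had 11, 32 and 13 estimated counts in Tet2 KO and 0, 1 and 0 in Tet2 WT. It was listed at 0.244, 0.458 and 0.191 TPM in Tet2 KO and at 0, 0.0148 and 0 TPM in Tet2 WT, the lowest mean of the 9 genes in either group. The summed counts were 56 in Tet2 KO and 1 in Tet2 WT, or 0.384 per 1e+06 counts (exact Poisson 95% interval 0.290 to 0.499) and 0.00649 (0.000164 to 0.0362). These intervals too cover counting error only and do not test a difference. As for Pdcd1lg2, Tet2 KO replicate 2 had the most counts, and the low Tet2 WT level had been seen when the gene was selected. The next gene along, Tnfsf18, which encodes the ligand of GITR, was not called (log2 fold change 0.89 ± 0.52, edgeR adjusted p = 0.305). Some genes flanking other ligand genes were called lower in Tet2 KO. They were Tubb4a before Tnfsf9 (log2 fold change -2.47 ± 0.35, edgeR adjusted p = 0.00131) and Dnmt3l before Icosl (-4.45 ± 0.86, edgeR adjusted p = 0.00737). Insyn1, before Cd276, was also lower (-3.77 ± 0.92, edgeR adjusted p = 0.0207). The other flanking genes that could be tested were not called. Of all tested genes, 10.1% were called lower in Tet2 KO. Exons of Cd274, Tnfsf9 and Cd276 overlap annotated genes on the opposite strand (AC119228.1, Gm11110 and Gm10657), and reads from such a pair cannot be told apart where counting did not use strand, which the sources used here do not give.

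Against the whole table, 2 of 7 tested ligand genes were called higher and 0 lower. Over all 16386 tested genes, 16.2% were called, 6.11% higher and 10.1% lower in Tet2 KO. Without Tet2 WT replicate 1 the number of genes called fell to 1382, and without Tet2 KO replicate 3 to 1750, against 2653 with all 6 libraries; the ligand genes called were still Tnfsf9 and Cd86 without Tet2 WT replicate 1. In CPM, 2 of 7 ligand genes had every Tet2 KO library above every Tet2 WT library and 0 had every one below, where 16.4% of tested genes were above and 18.1% below. The median log2 fold change of the 7 was 0.37, beside 0.0025 over all tested genes. The share of called genes that were higher was 37.7% in edgeR, 15.8% and 16.4% in the limma fits on log2(TPM + 1) and log2(TPM + 0.1), and 0.27% when counts were scaled to the summed pan-macrophage markers.

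That last scaling moved the median gene to a log2 fold change of -0.70 and changed the ligand results. Scaled to the pan-macrophage markers, Tnfsf9 stood at a log2 fold change of 0.16 (adjusted p = 0.510 by edgeR) and Cd86 at 0.02 (adjusted p = 0.930), and 0 of the 7 genes were called in either direction. The summed markers weigh abundant genes most, above all Lyz2, which averaged 21950 ± 3158 CPM in Tet2 KO, against 13660 ± 2241 CPM in Tet2 WT. A second comparison gave each of the 16 pan-macrophage markers the same weight. It took log2(CPM + 0.5) of each gene minus the mean log2(CPM + 0.5) of the markers in the same library. This difference gave overlapping groups for all 7 genes. For Tnfsf9 this difference was 0.21 ± 0.24 higher in Tet2 KO (± SE; two-sided exact permutation p = 0.5), and for Cd86 it was 0.05 ± 0.14 higher (exact p = 0.7). For the other 5 it was lower in Tet2 KO, by between 0.27 (Cd40) and 0.54 (Cd274), with exact p values of 0.2 to 0.4. Adjusted over the 7 genes, these p values ran from 0.35 to 0.7, and 3 libraries against 3 cannot give a p under 0.1. In a fit with the fibroblast marker level as a covariate, which did not overlap between the genotypes, neither gene was called (log2 fold change -0.27 for Tnfsf9, edgeR adjusted p = 0.939, and 1.02 for Cd86, adjusted p = 0.783). Tnfsf9 and Cd86 thus differed between genotypes relative to all counts, and a difference per macrophage marker was not detected.

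**Figure D2:**
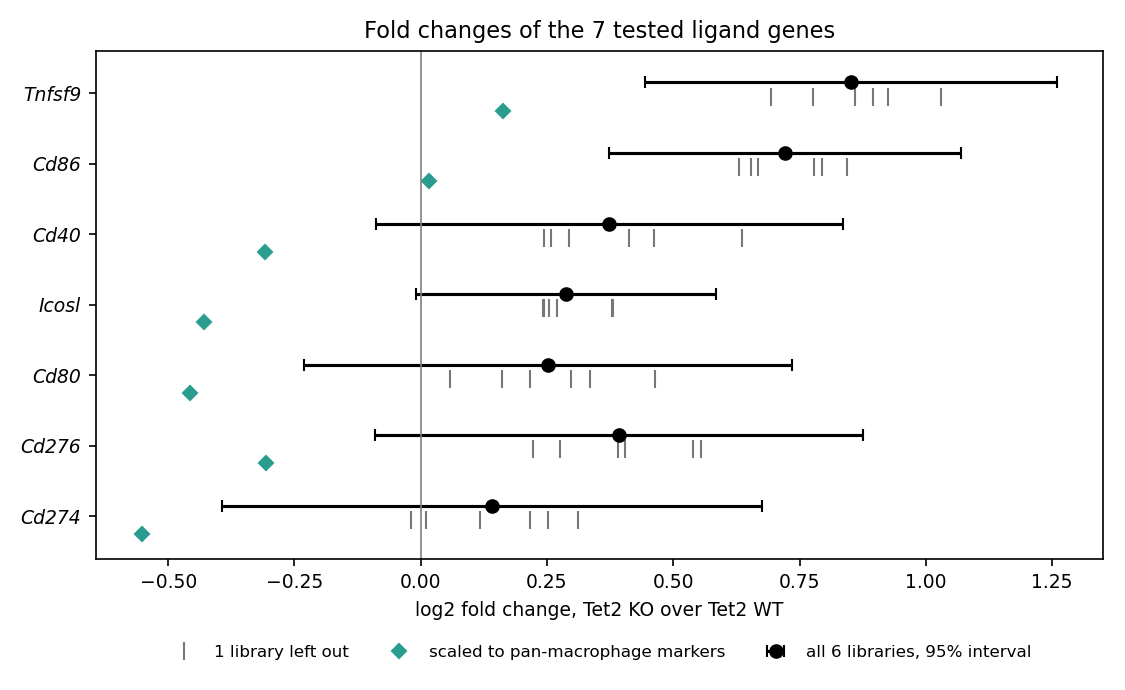
Log2 fold change, Tet2 KO over Tet2 WT, of the 7 tested ligand genes: black points with 95% intervals use all 6 libraries, grey ticks leave out 1 library each, and green diamonds are counts scaled to the pan-macrophage markers. The intervals of Tnfsf9 and Cd86 lie above 0, and their green diamonds lie at 0.16 and 0.02.

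**Figure D3:**
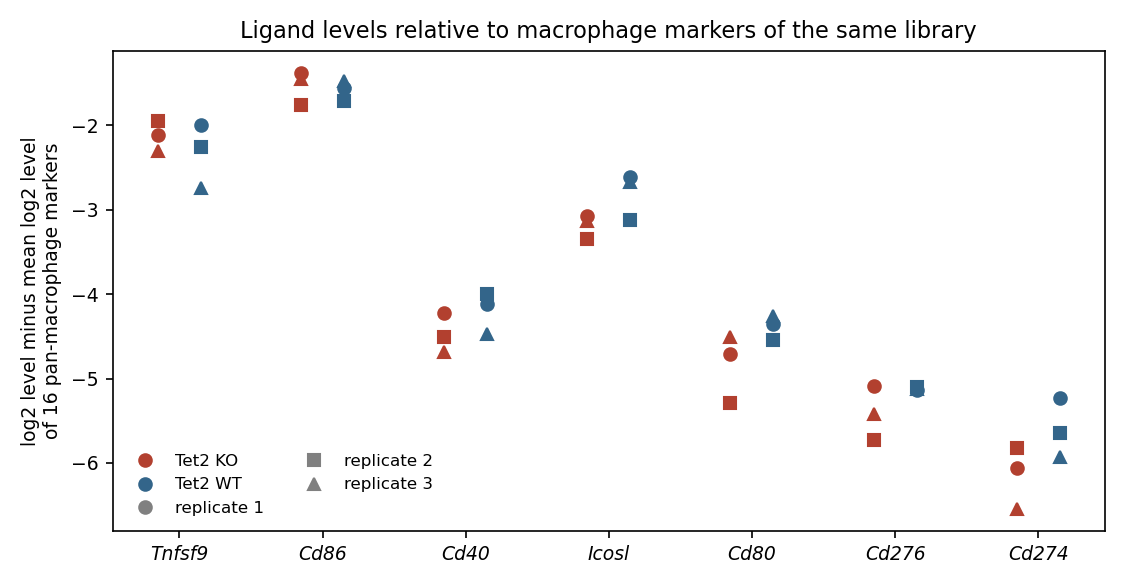
Log2(CPM + 0.5) of each ligand gene minus the mean log2(CPM + 0.5) of 16 pan-macrophage markers in the same library, for Tet2 KO (red, left of each pair) and Tet2 WT (blue, right); marker shapes give the replicate. The groups overlap for each of the 7 genes.

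Transcript by transcript, the ligand genes have 27 annotated transcripts, of which 23 passed the filter, 21 of them from the 7 tested genes. Pdcd1lg2-201 and Tnfsf4-201 passed only through their Tet2 KO libraries. None of the 21 transcripts of the tested genes was called higher or lower by the edgeR quasi-likelihood test. Of the 53249 transcripts tested, 0.447% were called higher and 2.21% lower in Tet2 KO. That background rests on the libraries used: 1417 transcripts were called with all 6, and 716, 719, 401 and 323 without Tet2 KO replicates 1 and 3 and Tet2 WT replicates 1 and 3. Cd86-201, the protein-coding transcript, was listed at 167, 116 and 163 TPM in Tet2 KO and at 78.3, 96.7 and 113 TPM in Tet2 WT, without overlap, and its log2 fold change was 0.75 ± 0.18 (adjusted p = 0.0768 by edgeR). Cd86-203, a processed transcript of 2 exons (chr16:36660774-36666081) with 845 of its 975 bases outside Cd86-201, was listed at 54.2, 51.0 and 58.1 TPM in Tet2 KO and at 50.1, 57.8 and 39.6 TPM in Tet2 WT (log2 fold change 0.27 ± 0.19, edgeR adjusted p = 0.595). Tnfsf9 has 1 transcript, Tnfsf9-201, with a log2 fold change of 0.82 ± 0.20 and an edgeR adjusted p of 0.0873 in that larger family of tests.

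Shares of a gene's TPM, a comparison added after seeing the data, were compared for 17 transcripts of 5 ligand genes that took at least 5% of their gene. The share of Cd86-201 in Cd86 was 74.9%, 67.8% and 73.1% in Tet2 KO and 59.9%, 60.2% and 72.6% in Tet2 WT, which overlapped (exact permutation test, two-sided, p = 0.2). The share of Cd40-205, annotated as a retained intron with 131 of its 545 bases outside Cd40-201, was 21.6%, 22.0% and 21.7% in Tet2 KO and 17.5%, 16.8% and 18.2% in Tet2 WT, and the groups did not overlap. The share of Cd80-203 was 45.4%, 29.1% and 29.2% in Tet2 KO and 16.4%, 28.7% and 26.9% in Tet2 WT, again without overlap, although replicates 2 and 3 of both groups lay close together. All 748 bases of Cd80-203 lie within Cd80-202, so its share depends on how kallisto divided shared reads. Cd40-205 and Cd80-203 each had an exact permutation p of 0.1, the smallest these libraries can give, and 0.486 after adjustment over the 17. These 2 of 17 shares were higher and 0 lower without overlap, where 7.21% of 31508 transcripts of all genes, by the same limits on counts and share, were higher and 7.38% lower. Icosl-201 kept a nearly constant share of Icosl, 75.2%, 75.9% and 78.6% in Tet2 KO and 79.0%, 75.2% and 74.0% in Tet2 WT.

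**Figure D4:**
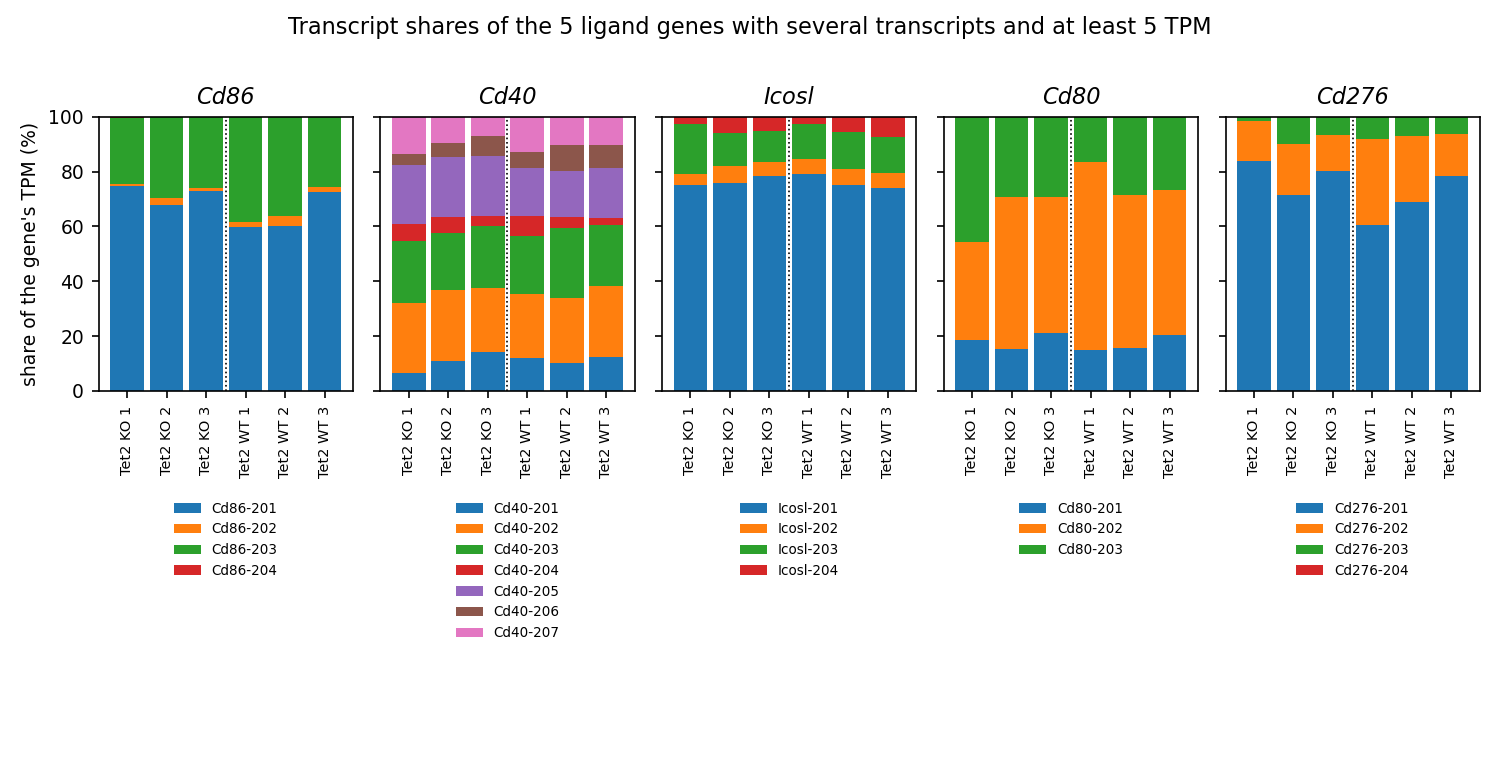
Share of each gene's TPM (%) taken by its annotated transcripts in the 3 Tet2 KO libraries (left of the dotted line) and the 3 Tet2 WT libraries (right), stacked to 100%. The Cd40-205 band is near 22% in Tet2 KO, against 16.8% to 18.2% in Tet2 WT, and the Cd80-203 band is widest in Tet2 KO replicate 1, at 45.4%.

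The genes whose profile over the 6 libraries came nearest to each ligand gene were found by the root-mean-square difference of log2(CPM + 0.5), centred per gene, among 13348 genes. For Cd86 they were Alox5, which encodes 5-lipoxygenase, at 0.0230 and Mkrn1 at 0.0378, beside a median of 0.434 over all genes. For Tnfsf9 they were Ccl12, a chemokine gene, at 0.0985 and the class I gene H2-Q7 at 0.1, beside a median of 0.521, so no gene came as near to Tnfsf9 as Alox5 did to Cd86. For Cd40 they were Ptrhd1 (0.0492) and Tlr6 (0.0641), Tlr6 being a Toll-like receptor gene. Icosl was nearest to Ctnna1 (0.0296) and Golm1 (0.0299), Cd80 to Smyd4 (0.0453) and Trmo (0.0641), Cd276 to Ftl1-ps1 (0.0417) and Frg1 (0.0456), and Cd274 to Hspb11 (0.0775) and Oprm1 (0.0858). No ligand gene was among the 2 nearest of another. Between ligand genes the difference ran from 0.191 (Cd80 and Icosl) to 0.541 (Cd80 and Tnfsf9), so Tnfsf9 and Cd80 were the least alike pair.

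Other ligands of the same families included 2 more that were higher. Of 13 listed B7 and TNF-superfamily ligand genes, 9 could be tested, 2 were called higher and 0 lower, and their median log2 fold change was 0.72. Beside this list and those below, 6.11% of all tested genes were called higher and 10.1% lower. Vsir, which encodes the checkpoint protein VISTA, averaged 562 ± 23.1 CPM in Tet2 KO, against 352 ± 43.5 CPM in Tet2 WT (log2 fold change 0.68 ± 0.14, edgeR adjusted p = 0.00841). Tnfsf13, which encodes the B cell factor APRIL, averaged 50.5 ± 7.09 CPM in Tet2 KO, against 30.7 ± 6.48 CPM in Tet2 WT (0.72 ± 0.18, edgeR adjusted p = 0.0223). Of 15 other checkpoint and adhesion ligand genes, 6 were called higher and 1 lower, and the median log2 fold change was 0.33. Those higher by smallest p were Lgals9 (galectin-9, 0.68 ± 0.13), Fgl2 (0.72 ± 0.14), Sirpa, the receptor for CD47 (0.67 ± 0.14), and Lgals3 (galectin-3, 0.83 ± 0.18), with edgeR adjusted p values of 0.00732 to 0.0118. Nectin3, an adhesion gene, was lower (log2 fold change -1.93 ± 0.42, edgeR adjusted p = 0.0154), at 6.00 ± 2.96 CPM in Tet2 KO, against 22.8 ± 8.37 CPM in Tet2 WT.

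The receptors of these ligands are mostly carried by T cells. Of 8 receptor genes 6 could be tested, 0 were called higher and 1 lower, and the median log2 fold change was -0.19. The lower one was Rgmb, which encodes a receptor of PD-L2 outside T cells, at 46.2, 51.3 and 54.2 CPM in Tet2 KO, against 119.5, 67.1 and 91.0 CPM in Tet2 WT (log2 fold change -0.87 ± 0.20, edgeR adjusted p = 0.0148). Its Tet2 KO libraries all lay below its Tet2 WT libraries, as was so for 18.1% of all tested genes. Cd28 stood at 12.3, 1.89 and 8.37 CPM in Tet2 KO, against 4.35, 6.11 and 4.07 CPM in Tet2 WT, overlapping, and Cd40lg was at 0 in all 6 libraries. Of 10 T cell markers, 6 could be tested and none was called; they summed to 11.5 to 16.2 CPM in Tet2 KO, against 8.03 to 17.7 CPM in Tet2 WT.

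Signalling genes around CD40 and the cytokine pathways that act on these ligands were partly higher in Tet2 KO. Of 19 CD40 and NF-kB genes, 4 were called higher and 0 lower (median log2 fold change 0.32): Birc3 (0.60 ± 0.12), Traf1, an adaptor of TNF receptors (0.64 ± 0.16), Nfkb2, the subunit of the non-canonical pathway (0.55 ± 0.14), and Ikbkb (0.48 ± 0.13). Of 13 interferon-gamma, JAK and STAT genes, 4 were called higher and 0 lower (median 0.35), among them the transcription factors Irf9 (0.54 ± 0.12) and Irf8 (0.64 ± 0.15) and the receptor chain Ifngr2 (0.52 ± 0.12). Of 12 IL-4 and GM-CSF genes, 7 were called higher and 0 lower (median 0.63), led by Il2rg, the common gamma chain, at 208 ± 30.3 CPM in Tet2 KO, against 102 ± 17.7 CPM in Tet2 WT (log2 fold change 1.03 ± 0.16, edgeR adjusted p = 0.00241), then Csf2ra (0.75 ± 0.15), Batf (0.72 ± 0.17) and Il4ra (0.57 ± 0.14). Of 6 partners of the PD-L1 protein, Cmtm6, which keeps PD-L1 at the surface, was called higher (0.50 ± 0.13, edgeR adjusted p = 0.0325) and the other 5 were not called. All 8 class II presentation genes were called higher (median 0.82), with H2-DMb1 at 0.94 ± 0.15, H2-DMb2 at 0.89 ± 0.17, H2-Ab1 at 0.93 ± 0.18 and the class II regulator Ciita at 0.73 ± 0.15. Scaled to the pan-macrophage markers, 0 genes of these 8 lists were called higher, and between 0 and 6 genes of a list were called lower. The median over all tested genes was 0.0025, and the 16 pan-macrophage markers had a median of 0.72, against which these medians can be read. The counts stand beside 6.11% called higher over all tested genes and 12 of the 16 pan-macrophage markers.

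**Figure D5:**
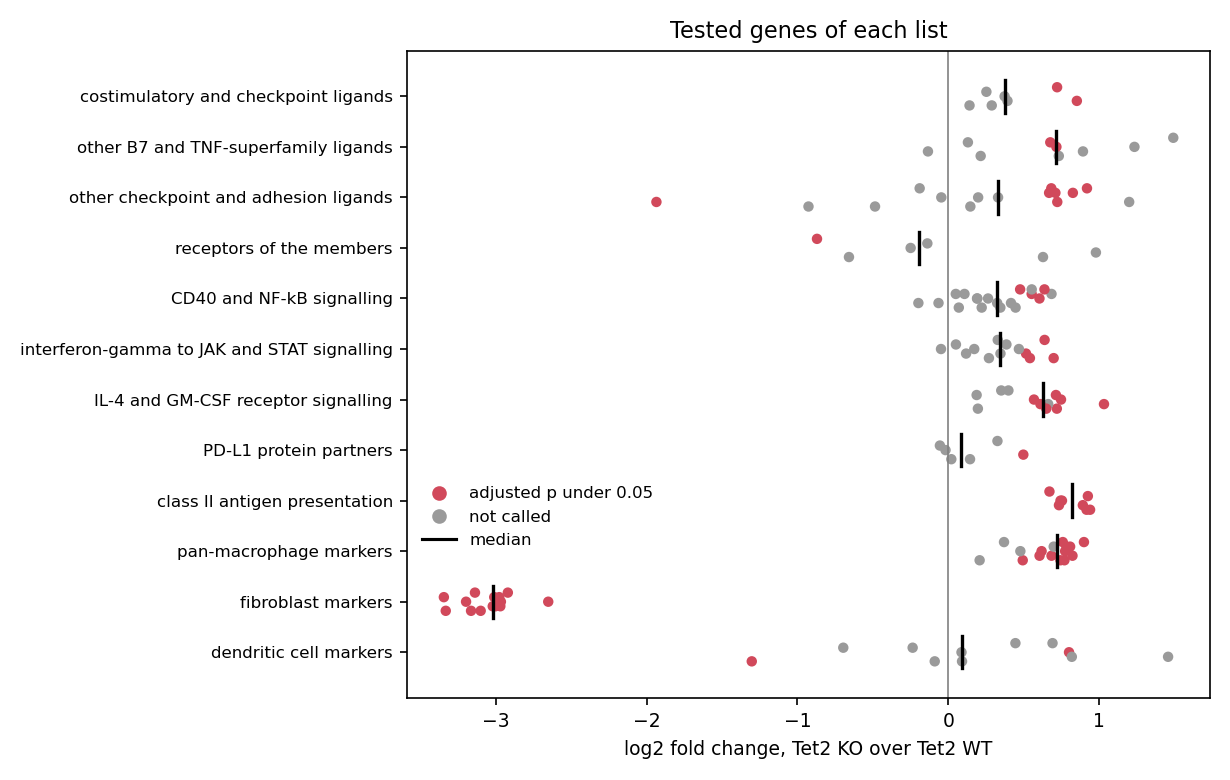
Log2 fold change, Tet2 KO over Tet2 WT, of the tested genes of each list; red points were called at an adjusted p under 0.05 and black bars are medians. The ligand genes have a median of 0.37, the class II genes 0.82, the pan-macrophage markers 0.72 and the fibroblast markers -3.01.

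Dendritic cells and B cells also present antigen and carry these ligands. The 11 dendritic cell markers summed to 105.1, 91.5 and 103 CPM in Tet2 KO, against 77.0, 79.4 and 86.5 CPM in Tet2 WT; 1 was called higher (Cd209a) and 1 lower (Fscn1), and the median log2 fold change was 0.09. Cd209a, the most abundant of the 11, set that order of the sums: without it, a sum added after seeing the data, the other 10 gave 31.9, 40.0 and 32.2 CPM in Tet2 KO, against 37.8, 38.3 and 41.9 CPM in Tet2 WT, which overlapped. Zbtb46, a defining dendritic cell gene, stood at 15.9, 16.1 and 13.3 CPM in Tet2 KO, against 15.8, 14.2 and 18.2 CPM in Tet2 WT. Of 10 B cell markers 7 could be tested and 3 were called higher (Cd79b, Bank1 and Ighm); the 10 summed to 574 to 1002 CPM in Tet2 KO, against 462.6 to 591.3 CPM in Tet2 WT, and the median log2 fold change of the 7 was 0.03. Most of that sum was Ighm and Bank1, and the other 8 gave 27.0 to 34.5 CPM in Tet2 KO, against 15.1 to 21.4 CPM in Tet2 WT. Most of what those 8 gave was in turn Cd79b. With TMM scaling, Cd79b stood at 34.6, 27.8 and 26.7 CPM in Tet2 KO, against 11.4, 17.3 and 10.9 CPM in Tet2 WT. The order of the sum of those 8 therefore does not speak for B cell markers in general. Cd79a (log2 fold change -0.41), Fcer2a (-0.38), Cr2 (-0.01) and Ms4a1 (0.03) were not called. The B cell transcription factor gene Pax5 had 0, 6 and 0 counts in Tet2 KO and 0, 0 and 3 counts in Tet2 WT. The part of dendritic cells and B cells in the ligand results was not tested.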

How the data were processed

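RNA of 6 libraries was sequenced. The submitters' processing notes name Trim Galore 0.6.4, kallisto 0.44.0 and the build GRCm38. For each of 118783 transcripts the deposited tables hold an estimated count, a TPM value, a length and an effective length, per the file headers; which annotation release the authors used was not stated in these sources. By identifier without version, 116622 transcripts (98.18%) matched GENCODE M21, and 99.84% of these had the same length there; the others held at most 0.6707% of a library's counts and were left out. kallisto divides reads that transcripts share, which bears on single transcripts most.

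Estimated counts were summed per gene and rounded to whole numbers, filtered with edgeR 4.0.16 (filterByExpr), scaled by TMM and tested by its robust quasi-likelihood test in R 4.3.3, on genotype alone, with p-values adjusted by Benjamini-Hochberg over 16386 genes (called at an adjusted p under 0.05). A standard error is the fold change divided by the root of F. CPM values of genes use TMM; summed marker CPM use each library's total. Transcripts were fitted alike. Exact permutation tests ran over the 20 label assignments. Depth and 3 libraries per group limit the precision. The test was also run on simulated data with 200 changed genes, whose outcome is not given here, so nothing is concluded from that run. No 2 libraries of a group agreed within sampling noise (chi-square per gene at least 69.2).

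The ligand genes and all lists were chosen with earlier results of these data known. The genes named are all 9 ligand genes, up to 4 called genes of each list by smallest p with any called against the list's majority, any gene of lists of at most 8, and the 2 nearest profiles of each ligand gene with a mean of at least 1 CPM; flanking genes, transcripts and markers were named after their values were seen. Of the genes this rule names, 1 is not reported here. Alternatives were RLE, upper-quartile and pan-macrophage scaling, no or a stricter filter, leaving out libraries in turn, a replicate block, length-scaled TPM counts, a fibroblast covariate, DESeq2 1.42.0, limma 3.58.1 voom, limma fits of log2(TPM + 1) or log2(TPM + 0.1), and a pseudocount of 0.1 CPM for the relative levels. Marker sums without the most abundant genes were added after seeing the data.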

Additional observations from a re-analysis of the deposited data

How the results depend on the processing

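Over 18 alternatives, Tnfsf9 was called higher in 16 and Cd86 in 13, Cd40 in 1, and Cd80, Cd274, Icosl and Cd276 in 0. Scaled to the pan-macrophage markers, 7026 genes were called (0.27% of them higher) and 0 ligand genes were called higher. With a covariate for fibroblast markers, 0 genes were called by edgeR (927 had an unadjusted p under 0.05), as were 0 ligand genes (0 at an unadjusted p under 0.05); the log2 fold change of Tnfsf9 was then -0.27 (adjusted p = 0.939) and that of Cd86 1.02 (adjusted p = 0.783). That covariate did not overlap between the genotypes, so genotype and fibroblast level cannot be told apart in these libraries. The limma fits of log2(TPM + 1) or log2(TPM + 0.1) called 1 ligand gene each, Tnfsf9. Leaving out 1 library gave 1382 to 3141 genes, 1 to 3 ligand genes and 323 to 1220 transcripts; Cd86 was lost without Tet2 KO replicate 3 and Cd40 was gained without Tet2 WT replicate 2. DESeq2 called 3393 genes and 2 ligand genes.

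The labels number the replicates alike in both groups but do not say that equal numbers are pairs. Deviations from the group mean correlated at 0.078, 0.173 and 0.059 between same-numbered libraries, and at -0.131 to 0.067 between differently numbered ones. Each Tet2 WT library correlated best with the Tet2 KO library of its number, while Tet2 KO replicate 3 correlated best with Tet2 WT replicate 1 (0.067). These weak correlations do not settle whether the numbers are pairs, so the replicate block was run as an alternative. With the replicate block, 2347 genes, 2 ligand genes and 592 transcripts were called, against 2653 genes, 2 ligand genes and 1417 transcripts without it. The stricter filter called 1834 transcripts. The cause of these changes was not tested. Depth limits Pdcd1lg2 and Tnfsf4, whose Tet2 WT counts were 0 to 2, and with 3 libraries a group the intervals of Cd40, Icosl, Cd80, Cd276 and Cd274 all include 0.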
